A study of Homo sapiens with 4 samples.

Results

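Amino acid transporters of 7 solute carrier families (SLC1, SLC3, SLC6, SLC7, SLC36, SLC38 and SLC43) were followed in THP1 cells. Genes were chosen by name, with earlier results of these data known. Every non-control probe whose gene symbol belongs to one of these families was taken. This gave 59 genes and 80 probes out of 27193 gene names and 34127 probes on the array. THP1 is a human monoblastic acute myeloid leukemia cell line carrying the fusion gene MLL-AF9. All cells were transfected once with a microRNA mimic at 30 nM, kept in medium with low serum and albumin, and harvested on day 2. One group received the miR-511-5p mimic and the other the control mimic #1, and each treatment was given in experiment 1 and in experiment 2, so that 4 single-dye arrays (2 per treatment) were available. All samples are of 1 cell line, and both groups carry the transfection and the medium, so untreated cells are not part of the comparison.

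Cells cannot make essential amino acids and take them up through membrane transporters that differ in substrate and in what drives them. The SLC1, SLC6 and SLC38 proteins largely use the sodium gradient, SLC36A1 and SLC36A2 use protons, and SLC43A1 and SLC43A2 facilitate transport of large neutral amino acids. Most SLC7 light chains work only when bound by a disulfide bridge to a heavy chain, SLC3A2 (also known as CD98hc or 4F2hc) or SLC3A1 (rBAT). The pair SLC3A2 and SLC7A5 (LAT1) brings in leucine, which feeds the kinase complex mTORC1, and the pair SLC3A2 and SLC7A11 (xCT) exchanges glutamate for cystine, the precursor of glutathione. Several of these genes are known targets of ATF4, the transcription factor induced when amino acids run short.

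The sequence of hsa-miR-511-5p, the microRNA that the mimic stands for, is shown because its seed (bases 2 to 8, capitals) decides which transcripts it can pair with. It is RefSeq's mature sequence, on GRCh38.p14 at chr10:17845122-17845142, plus strand.
hsa-miR-511-5p: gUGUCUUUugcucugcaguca
The match to this seed, AAAGACA, was found in 0 of the 80 transporter probes (each 60 bases) and in 331 of all 34127 probes (0.97%). A probe covers a short piece of a transcript, so this count says nothing of sites elsewhere in these mRNAs.

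Promoters were searched because ATF4 and C/EBP proteins bind a shared response element. The motif TGATGNAAN was looked for on both strands from 250 bases before to 50 bases after each RefSeq start, and 6 of the 44 transporter genes with such a window held it (13.6%), against 1268 of all 35116 windows (3.61%), a count of genes set beside a count of windows. The 6 genes were SLC1A3, SLC1A4, SLC1A5, SLC3A2, SLC7A1 and SLC38A1. Stretches of 30 bases from 4 genes whose values are given in full are printed with the motif in capitals, on the strand that carries it (minus strand of GRCh38.p14 in all 4), at chr11:62881719-62881748 for SLC3A2, chr19:46784892-46784921 for SLC1A5, chr13:29595662-29595691 for SLC7A1 and chr12:46266501-46266530 for SLC38A1.
SLC3A2: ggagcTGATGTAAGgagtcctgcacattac
SLC1A5: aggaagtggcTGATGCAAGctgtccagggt
SLC7A1: ggcgcactgcTGATGAAACctggcgccgga
SLC38A1: cagacccgaaTGATGAAAAgggatcagcta
These are matches of letters, and no binding was measured.

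Arrays were comparable in coverage. The scanner software called 64.8% to 69.3% of all probes well above background, the criterion used here for a gene being expressed, and no spot was saturated. Cell identity was checked on markers: of 9 monoblast markers with a probe, 8 were well above background on all 4 arrays, CD33, MPO, CD14, CSF1R, SPI1 and HOXA9 among them. The exception was MEIS1, a partner of HOXA9, which was above background on both arrays of experiment 1 and on neither array of experiment 2. EPCAM, CDH1, COL1A1 and COL1A2, which mark epithelial and stromal cells, and the B-cell marker MS4A1 were above background on no array, whereas KRT8 and KRT18, and CD3D, CD79A and NKG7 among the lymphoid markers, were on all 4.

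Of the 59 transporter genes, 35 were well above background on all 4 arrays at their brightest probe, 4 on some arrays and 20 on none. At the level of probes, 42 were above background on all 4 arrays, 3 on 3 arrays, 3 on 1 array and 32 on no array. Of these 32 probes, 24 had a value set by the scanner software at its lower limit on 3 or 4 arrays. A gene counted as on no array may lie below what its probe can detect, and a gene above background may owe part of its signal to other transcripts that its probe binds, which was not tested. Brightness also depends on the probe, so levels are compared here within a probe and never between genes.

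**Figure D1:**
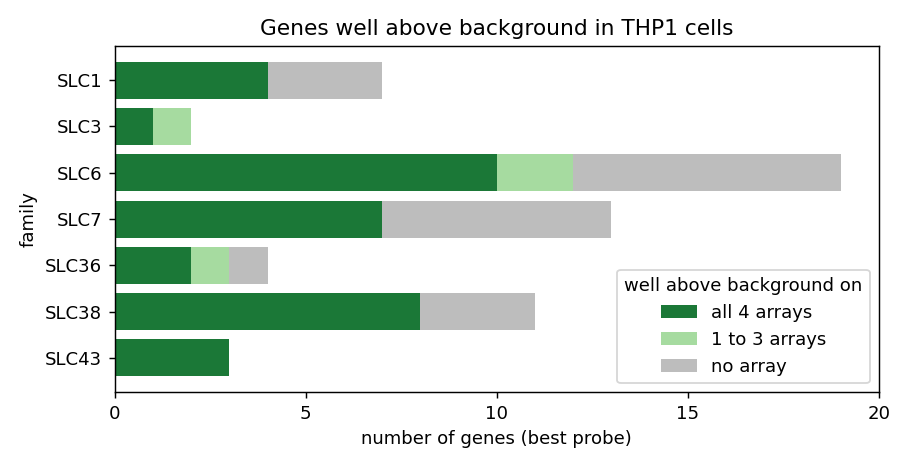
Number of transporter genes per family (horizontal bars, starting at 0) by the number of arrays on which the brightest probe of the gene was well above background. All 3 SLC43 genes and 8 of 11 SLC38 genes were above background on all 4 arrays, whereas 7 of 19 SLC6 genes and 6 of 13 SLC7 genes were on none.

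Among the heavy chains, SLC3A2 was above background on all 4 arrays, and SLC3A1, the partner of kidney and gut cystine transport, was above background on 3 arrays at 1 of its 4 probes. Of 8 SLC7 light chains, 5 were expressed: SLC7A5 (LAT1), SLC7A6 and SLC7A7 (y+LAT2 and y+LAT1, which export cationic in exchange for neutral amino acids), SLC7A10 (asc-1, known for small neutral amino acids and D-serine) and SLC7A11 (xCT). SLC7A8 (LAT2), SLC7A9 (the light chain partner of SLC3A1) and SLC7A13 were above background on no array. Of the 5 SLC7 proteins of the cationic branch, which need no heavy chain, SLC7A1 (CAT1, the broadly expressed arginine and lysine carrier) and SLC7A2 were expressed, and SLC7A3, SLC7A4 and SLC7A14 were not.

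Of 7 SLC1 genes, 4 were above background on all arrays. These were the neutral amino acid exchangers SLC1A4 (ASCT1) and SLC1A5 (ASCT2, a glutamine carrier) and the glutamate transporters SLC1A3 and SLC1A7. The glutamate transporters SLC1A1, SLC1A2 and SLC1A6 were on none. The SLC38 family of sodium-coupled glutamine and alanine carriers had 8 of 11 genes above background. SLC38A1 and SLC38A2 (SNAT1 and SNAT2) work at the plasma membrane and SLC38A9 is the arginine sensor of the lysosome. SLC38A4, SLC38A8 and SLC38A11 were on no array. The proton-coupled SLC36A1, its relative SLC36A4 and all 3 SLC43 genes were on all arrays, while SLC36A2 was on 1 array and SLC36A3 on none.

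SLC6, with the most genes among these families, holds the neurotransmitter carriers. Of its 19 genes, 10 were above background on all 4 arrays. These included SLC6A6 (taurine), SLC6A8 (creatine), SLC6A9 and SLC6A5 (glycine), SLC6A13 (GABA), SLC6A2 (noradrenaline) and SLC6A3 (dopamine), besides SLC6A16, SLC6A17 and SLC6A18. SLC6A8 has near-identical copies elsewhere in the genome, and its signal is therefore uncertain as to source. SLC6A19 and SLC6A20, which carry neutral amino acids and proline in kidney and gut, were above background on 3 arrays and 1 array, and genes such as SLC6A4 (serotonin), SLC6A7 (proline) and SLC6A14 on none. For SLC6A2, SLC6A3 and SLC6A9, 1 of 2 probes was above background on all arrays and the other on none.

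The question of the treatment comparison was whether cells with the miR-511 mimic differed from cells with the control mimic. Values are normalized log2 signals, and a probe was tested when either group had both of its arrays well above background, which held for 45 transporter probes in each comparison. No transporter probe passed an unadjusted p of 0.05 in limma's moderated test (0 of 45), against 498 of 22638 probes overall (2.2%). With Benjamini-Hochberg adjustment over all probes none of the 22638 passed in limma, the lowest adjusted p being 0.79. The median log2 difference (miR-511 mimic minus control mimic) was 0.05 over the transporter probes and 0.01 over all tested probes. Above 0 were 30 transporter probes and below 0 were 15, against 12157 and 10481 of all tested probes. Some of the 45 were probes of the same gene. In 28 of 45 (62.2%) the difference had the same sign in both experiments, against 51% of all tested probes. A p above the threshold does not show that the levels were equal, and with 2 arrays per group the 95% intervals were often wide.

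The heavy chain SLC3A2 had log2 values of 11.55 and 11.97 with the miR-511 mimic (experiments 1 and 2) and 11.55 and 11.86 with the control mimic. The groups overlapped, and the log2 difference was 0.05 (95% interval -0.50 to 0.60). For SLC7A11 the values were 12.32 and 13.15 with the miR-511 mimic and 12.40 and 12.93 with the control mimic, a difference of 0.07 (interval -0.90 to 1.04). In both genes the arrays separated by experiment rather than by mimic.

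For SLC7A5 the values were 10.54 and 10.82 with the miR-511 mimic and 10.30 and 10.70 with the control mimic, a difference of 0.18 (interval -0.34 to 0.69). SLC7A7 had 9.50 and 10.04 against 9.40 and 9.88, a difference of 0.13 (interval -0.60 to 0.86). SLC7A6 had 6.65 and 6.54 against 6.61 and 6.61, a difference of -0.01 (interval -0.28 to 0.25). The 3 light chains overlapped between the mimics. Within experiments the miR-511 array was higher for SLC7A5 by 0.24 and 0.11 and for SLC7A7 by 0.10 and 0.16. With the experiment as a block the SE fell from 0.19 to 0.09 for SLC7A5 and from 0.27 to 0.08 for SLC7A7, and neither passed the threshold.

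For the cationic carrier SLC7A1 the values were 11.60 and 11.65 with the miR-511 mimic and 11.48 and 11.49 with the control mimic. The groups did not overlap, and the difference was 0.14 (SE 0.09, unadjusted p = 0.182 in limma, adjusted p = 1). SLC7A1 passed the unadjusted threshold in 1 of 13 alternative settings, a plain test of the averaged probe. For the glutamine carrier SLC1A5 the values were 11.01 and 10.77 against 10.76 and 10.79, a difference of 0.12 (interval -0.22 to 0.45) with overlapping groups.

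SLC38A1 had 10.64 and 10.61 with the miR-511 mimic and 10.81 and 10.88 with the control mimic. Both miR-511 arrays lay below both control arrays, and the difference was -0.22 (SE 0.09, interval -0.47 to 0.04, unadjusted p = 0.0779 in limma, adjusted p = 1). A probe at another position of SLC38A1 gave -0.12 (interval -0.38 to 0.13). SLC38A2 had 12.01 and 11.84 against 11.89 and 11.90, a difference of 0.03 (interval -0.26 to 0.33), and its groups overlapped. The first SLC38A1 probe passed the unadjusted threshold in 3 of 13 alternative settings. These were normexp background correction (-0.25), an intensity trend in limma and a plain test of the averaged probe. It did not pass with the experiment as a block (SE 0.08, unadjusted p = 0.081 in limma).

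The 2 probes with a log2 difference above 0.5 in size were both dim. SLC6A3 had 5.76 and 4.11 with the miR-511 mimic and 5.79 and 5.75 with the control mimic, so that 1 array made the difference of -0.83 (interval -2.42 to 0.76): it was -0.03 in experiment 1 and -1.64 in experiment 2. SLC6A19 had 3.19 and 3.93 against 4.13 and 4.57, a difference of -0.79 (interval -1.64 to 0.07), and was above background on 3 arrays only. The miR-511 arrays of SLC6A19 lay below the control arrays.

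Arrays of the same experiment shared part of their variation, so the experiment number was also fitted as a replicate block. Then 4 of 45 transporter probes passed the unadjusted threshold in limma, against 894 of 22638 probes (3.95%), and none passed after adjustment (lowest adjusted p = 0.969). SLC3A1 (0.44, SE 0.08) and SLC6A18 (0.31, SE 0.08) were higher with the miR-511 mimic in this fit, and SLC6A19 (-0.79, SE 0.12) and the dimmer probe of SLC38A6 (-0.44, SE 0.10) were lower. SLC3A1, SLC6A19 and this SLC38A6 probe were below background on the miR-511 array of experiment 1. SLC6A19 and this SLC38A6 probe thus entered the test only through the control group, where they were higher, so their direction supports nothing, and the brighter SLC38A6 probe gave 0.11 (SE 0.09), not past the threshold.

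**Figure D2:**
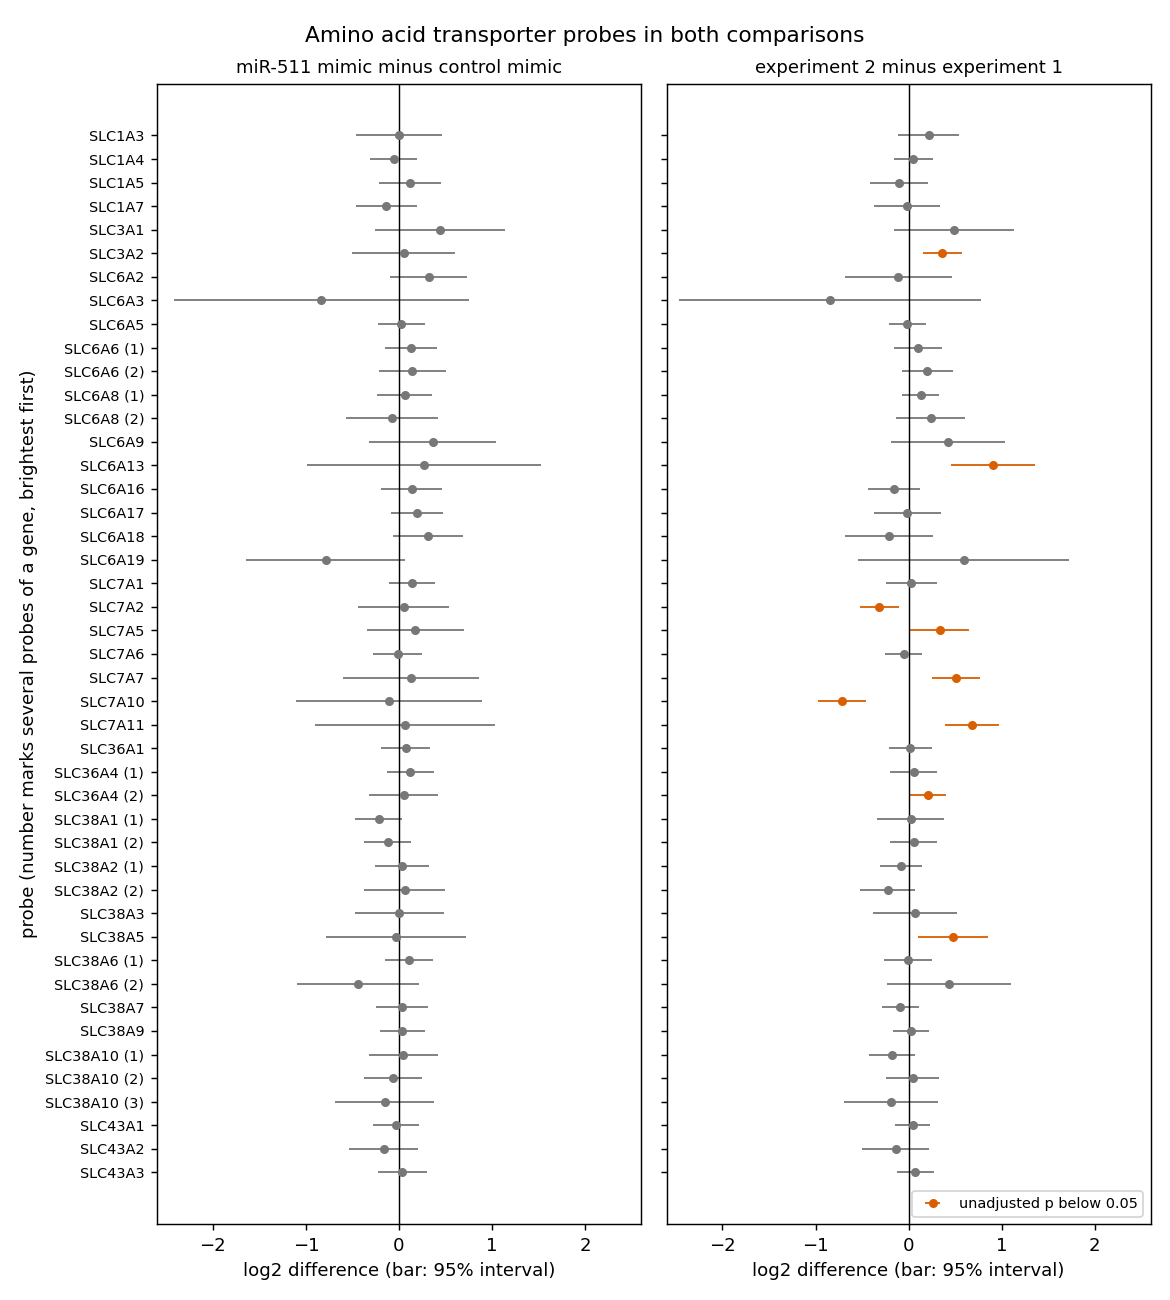
Log2 difference (points) with the 95% interval from limma (bars) of each tested transporter probe, for miR-511 mimic minus control mimic (left) and experiment 2 minus experiment 1 (right), with probes past an unadjusted p of 0.05 in orange. No probe is orange on the left, and 9 of 45 are on the right, 7 above 0 and 2 below.

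The second comparison asked how far transporter levels differed between the 2 experiments, each with 1 array per mimic. Here 9 of 45 transporter probes passed an unadjusted p of 0.05 in limma (20%), against 3191 of 22596 probes overall (14.1%). The share was near that of all probes, so the count is not particular to the transporters. Of the 9 probes, 7 were higher in experiment 2 and 2 lower, while among all probes past the threshold 1280 were higher and 1911 lower. None passed Benjamini-Hochberg adjustment over all probes in limma (lowest adjusted p of a transporter probe 0.187, lowest of all 0.0632). The median log2 difference (experiment 2 minus experiment 1) was 0.04 for the transporter probes and -0.01 for all tested probes. The sign was the same under both mimics in 31 of 45 probes (68.9%), against 62.9% of all. Experiment and anything that was done differently on the way to the arrays cannot be told apart.

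SLC3A2, the heavy chain, rose from 11.55 and 11.55 in experiment 1 (miR-511 mimic and control mimic) to 11.97 and 11.86 in experiment 2. The log2 difference was 0.36 (SE 0.08, 1.29-fold, unadjusted p = 0.00898, adjusted p = 0.238 in limma). Its probe lies at chr11:62652689-62652748 (hg19, as given in the scanner files). SLC7A11, the cystine light chain (probe at chr4:139085433-139085492), rose from 12.32 and 12.40 to 13.15 and 12.93, a difference of 0.68 (SE 0.11, 1.60-fold, unadjusted p = 0.00299, adjusted p = 0.203 in limma). In both genes the arrays of the 2 experiments did not overlap.

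SLC7A7, the y+LAT1 light chain (probe at chr14:23242604-23242663), rose from 9.50 and 9.40 to 10.04 and 9.88. The difference was 0.51 (SE 0.09, 1.43-fold, unadjusted p = 0.00535, adjusted p = 0.215 in limma). SLC7A5 (LAT1) went from 10.54 and 10.30 to 10.82 and 10.70, a difference of 0.34 (SE 0.11, 1.26-fold, unadjusted p = 0.0427, adjusted p = 0.343 in limma). The SLC7A5 call was kept in 1 of 4 fits that left out an array: the difference no longer passed without the control array of experiment 1 (0.22), the miR-511 array of experiment 2 (0.28) or the control array of experiment 2 (0.39). It also ended when no filter was set on dim probes and in a plain test of the averaged probe.

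SLC7A10, the asc-1 light chain (probe at chr19:33699710-33699769), moved the other way. It fell from 7.60 and 7.63 to 6.81 and 6.99, a difference of -0.71 (SE 0.09, 1.64-fold lower, unadjusted p = 0.00151, adjusted p = 0.187 in limma). SLC7A6, the remaining expressed light chain, gave -0.05 (95% interval -0.25 to 0.15, unadjusted p above the threshold), with 6.65 and 6.61 against 6.54 and 6.61. Thus, of the 5 expressed light chains, 3 passed the unadjusted threshold as higher, 1 as lower and 1 did not pass it, against 14.1% of all probes. None passed after adjustment, and 5 genes give no more than a description.

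Outside the heteromeric transporters, SLC6A13, a GABA and taurine carrier, rose from 4.60 and 4.22 to 5.40 and 5.24, a difference of 0.91 (SE 0.16, 1.88-fold, unadjusted p = 0.00494, adjusted p = 0.211 in limma). The probe was dim, and its difference was 0.27 with normexp background correction, still past the unadjusted threshold. SLC38A5 (SNAT5, a carrier of glutamine, serine and histidine) rose from 7.81 and 7.61 to 8.05 and 8.32, a difference of 0.48 (SE 0.13, unadjusted p = 0.0235 in limma). It lost its call without either control array (0.38 in the fit without that of experiment 1 and 0.35 without that of experiment 2), and in a plain test of the averaged probe.

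The cationic carrier SLC7A2 fell from 5.37 and 5.36 to 5.10 and 5.00, a difference of -0.31 (SE 0.07, unadjusted p = 0.0134 in limma). It lost its call without the control array of experiment 1 (-0.32) and without that of experiment 2 (-0.27), and was -0.11 with normexp background correction, not past the threshold. It also ended with an intensity trend in limma. For SLC36A4, the dimmer of 2 probes gave 0.21 (unadjusted p = 0.0413 in limma) from 9.35 and 9.30 to 9.56 and 9.51. That call was lost in each of the 4 fits without 1 array, with 75th percentile scaling (0.19) and with normexp background correction (0.13), and the brighter SLC36A4 probe gave 0.06 (95% interval -0.20 to 0.31).

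**Figure D3:**
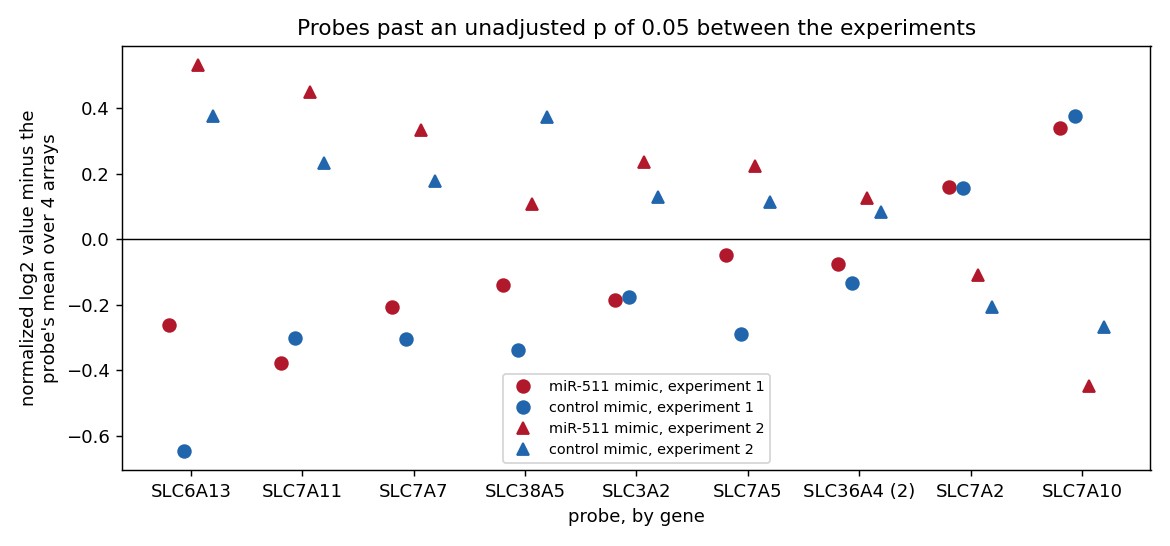
Normalized log2 value on each array minus the mean of that probe over the 4 arrays, for the 9 transporter probes past an unadjusted p of 0.05 between experiments (circles experiment 1, triangles experiment 2, red miR-511 mimic, blue control mimic; SLC36A4 (2) is the dimmer probe). In each of the 9 probes both arrays of one experiment lie on the same side of those of the other.

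SLC3A2, SLC6A13, SLC7A7, SLC7A10 and SLC7A11 remained past the unadjusted threshold in all 13 alternative settings, the 4 fits without 1 array included. With the treatment as a block 10 transporter probes passed, against 2690 of 22596 overall (11.9%). SLC38A5 and SLC36A4 were lost there, and the dim probes of SLC3A1 (0.49), SLC6A19 (0.59) and SLC38A6 (0.44) were gained. Each of these 3 was below background on an array of experiment 1 and entered the test only through experiment 2, where it was higher, so their direction is partly set by the filter and supports nothing.

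The other carriers chosen by name did not pass between the experiments. SLC1A5 gave -0.11 (95% interval -0.42 to 0.21), SLC7A1 0.03 (interval -0.24 to 0.30), SLC38A1 0.02 (interval -0.34 to 0.38) and SLC38A2 -0.08 (interval -0.31 to 0.15). Of these, SLC1A5, SLC7A1 and SLC38A1 hold the promoter motif shown above. Among the genes past the threshold it was found in SLC3A2 only. Since 44 of the 59 transporter genes had a promoter window, a gene without a match may not have been searched. All 3 SLC43 genes were within 0.14 of 0 on the log2 scale, SLC43A2 at -0.14, SLC43A1 at 0.04 and SLC43A3 at 0.07.

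Where a gene had several tested probes, they did not always run the same way. In SLC38A10 the 3 probes gave -0.18, 0.04 and -0.18 between the experiments and 0.05, -0.06 and -0.15 between the mimics. In SLC6A8 the probes gave 0.06 and -0.07 between the mimics. The probes of SLC6A6, the taurine carrier, ran alike, at 0.13 and 0.14 between the mimics and 0.10 and 0.20 between the experiments, none past the threshold.

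Other genes of amino acid supply were described by the same fit at their brightest probe. In the treatment comparison, 1 of 99 tested genes of these lists passed the unadjusted threshold in limma (1.01%), below the 2.2% of all probes. The gene was SLC32A1, the vesicular carrier of GABA and glycine (0.46, SE 0.09). It was below background on 1 control array and entered the test only through the miR-511 group, where it was higher, so its call is a description. Between the experiments 15 of 99 tested genes passed (15.2%), near the 14.1% of all probes, so the count is not particular to these genes. There were 9 without the control array of experiment 1, 9 without the miR-511 array of experiment 2 and 8 without the control array of experiment 2. Of 35 genes of the amino acid starvation response, 5 were higher and 1 lower in experiment 2 (17.1% called, near the 14.1% of all probes), with a median log2 difference of 0.05. The higher ones were PHGDH (0.47) and PSAT1 (0.39), enzymes of serine synthesis, PPP1R15A (0.28) and CHAC1 (0.23), which act in the stress response and in glutathione breakdown, and the stress regulator NUPR1 (1.13), while VLDLR, a lipoprotein receptor, was lower (-0.27). ATF4 itself gave 0.13 (SE 0.07) and ASNS, the asparagine synthetase, 0.07 (SE 0.07), neither past the threshold.

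Of 13 tested genes of cystine and glutathione metabolism, 3 were higher in experiment 2 and 0 lower (23.1% called, against 14.1% of all probes), with a median log2 difference of 0.19. A list this short gives no more than a description. These were GCLC, the catalytic subunit of the first step of glutathione synthesis (0.21, SE 0.07), thioredoxin reductase TXNRD1 (0.26, SE 0.07) and sulfiredoxin SRXN1 (0.34, SE 0.07). SRXN1 had 11.56 and 11.52 in experiment 1 and 11.87 and 11.90 in experiment 2. The modifier subunit GCLM gave -0.02 (SE 0.11), not past the threshold.

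Of 31 genes of amino acid sensing by mTORC1, 2 were higher, the mTOR-binding subunit MLST8 (0.35) and the lysosomal transcription factor TFEB (0.25), and 0 were lower (6.45% called, below the 14.1% of all probes), with a median of -0.02. Of 5 tested partners and regulators of transporter trafficking, 2 were called (40%, against 14.1% of all probes). So few genes give no more than a description. The kinase SGK1 was higher (0.33) and CD44, a membrane protein that associates with xCT, was lower (-0.68, SE 0.10). Of 16 other amino acid transporters, 2 were called (12.5%). The lysosomal peptide and histidine carrier SLC15A3 was lower (-0.28). The vesicular glutamate carrier SLC17A7 had 4.36 and 4.68 in experiment 1, where 1 array was below background, and 6.35 and 6.22 in experiment 2, through which alone it entered the test, so its call is a description. No gene of these lists had an adjusted p below 0.05 in limma.

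**Figure D4:**
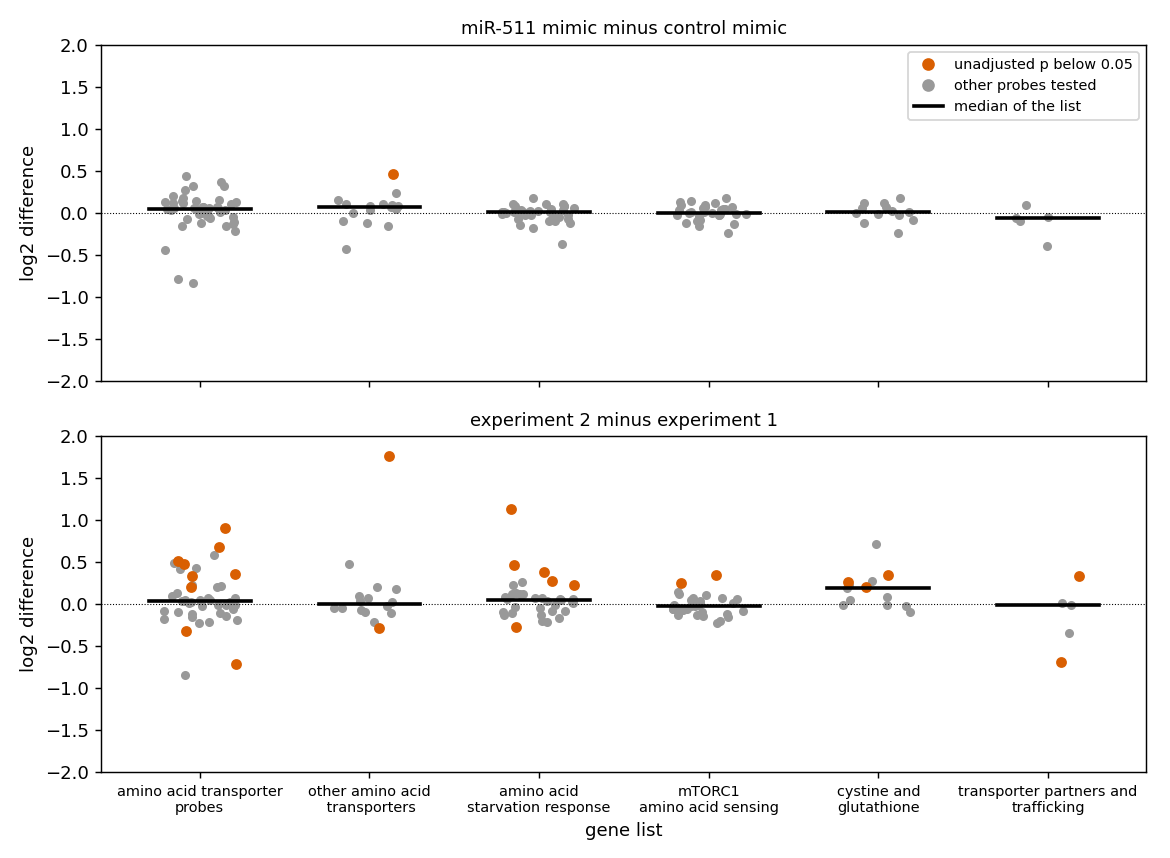
Log2 differences of the transporter probes and of the brightest probes of 5 other gene lists, for miR-511 mimic minus control mimic (top) and experiment 2 minus experiment 1 (bottom), with the median of each list as a black line and probes past an unadjusted p of 0.05 in orange. Medians between the experiments run from -0.02 (mTORC1 amino acid sensing) to 0.19 (cystine and glutathione).

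MEIS1 and CSF1R also passed the unadjusted threshold between the experiments. MEIS1 had 4.25 and 4.14 in experiment 1 and 1.92 and 2.53, not well above background, in experiment 2. CSF1R was lower by 0.25 on the log2 scale (SE 0.08, unadjusted p = 0.0313, adjusted p = 0.319 in limma). Over the 9 monoblast markers, 2 were lower and 0 higher past the unadjusted threshold, with a median log2 difference of -0.13. MEIS1, 1 of the 2, entered the test only through experiment 1, where it was higher, so its call is a description. KRT18 was lower (-0.34) and CD3D higher (0.21) in experiment 2, the only such calls among 9 tested markers of other cell types. Of all probes 14.1% passed the unadjusted threshold, 1280 higher and 1911 lower, and marker lists this short give no more than a description. In bulk RNA fewer cells of a kind and less RNA per cell cannot be told apart, and the part of these markers in the transporter differences was not tested.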

How the data were processed

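Total RNA of THP1 cells was hybridised by the authors to single-dye Agilent whole genome arrays. The deposited scanner files hold intensity values extracted with Agilent Feature Extraction (10.5.1.1 per the labels, another version per the file headers), background-subtracted within the array and annotated on hg19. The deposited table holds log2 values quantile normalized by the authors; its column medians were 6.69 to 6.70 (scanner files 6.53 to 6.80), each column correlated at 0.9998 or above with its array, and it served as an alternative.

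Here log2 of the processed signal was quantile normalized over non-control spots without outlier spots (232 to 301 per array), spots of a probe were averaged, and each comparison was fitted with limma 3.58.1 in R 4.3.3 on probes for which either group had both of its arrays well above background, with Benjamini-Hochberg adjustment over all of them. The methods name limma and an unadjusted p below 0.05 and no block. The code was tested on simulated data. A probe printed 10 times counted as above background when more than 50% of its spots did. Exact permutation of 2 against 2 arrays cannot reach the threshold. The labels number the experiments, and the deviations from the group means correlated at 0.271 between arrays of 1 experiment, so the block fit is given beside the results. P-values measure only the spread between these arrays, whose number limits precision.

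Of 80 transporter probes, 76 matched RefSeq by accession, all to the same symbol. Members and gene lists were chosen with earlier results of these data known. Full values were given for 9 carriers chosen by name and for probes past the unadjusted threshold, and those of other lists were named only when past it, at most 5 per list, apart from CHAC1, ATF4, ASNS, GCLM, SLC6A3, SLC6A19 and genes shown for probe disagreement or markers, which were chosen after their values were seen. Alternatives were scaling to the 75th percentile, background correction with normexp at an offset of 50, testing of every probe or of those above background on all 4 arrays, outlier spots kept, the deposited table, the block, an intensity trend, a plain t-test on averaged probes (the methods' own t-test, over identical replicate probes and added to limma's, was not run) and leaving out each array. Markers LYZ, FCGR1A and HBA1 were not analysed here.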

Additional observations from a re-analysis of the deposited data

How the results depend on the processing

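No transporter probe passed the adjusted threshold in any alternative. In the treatment comparison the count of transporter probes past the unadjusted threshold was 1 with 75th percentile scaling (SLC6A19), 1 with normexp (SLC38A1), 1 without a filter (SLC7A3, on no array above background), 1 with an intensity trend (SLC38A1), 2 in a plain t-test (SLC38A1 and SLC7A1), 4 with the replicate block and 1 to 2 when an array was left out, among them SLC6A3 at -1.64 without the miR-511 array of experiment 1. The genes of the other lists past it numbered 0 with the filter on all 4 arrays and 1 to 3 when an array was left out. All probes past it numbered 498, against 265 with normexp, 285 with an intensity trend, 894 with the replicate block, 1029 without a filter, and 1379 without the miR-511 array of experiment 2 and 796 without the control array of experiment 1. The transporter median was 0.0237 with normexp, 0.034 without a filter and -0.0104 to 0.0566 when an array was left out.

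Between the experiments 7 to 11 transporter probes passed the unadjusted threshold when an array was left out, and the genes of the other lists fell from 15 to between 8 and 11. All probes past it numbered 1893 without the control array of experiment 2, against 3191, and 3 passed the adjusted threshold with normexp and 1 in the plain t-test, none of them a transporter. The transporter median was 0.0171 with normexp, -0.00243 without a filter, 0.0266 with the filter on all 4 arrays and 0.0198 to 0.0512 when an array was left out. The block changed the calls given in the report and no others among transporter probes. The cause was not tested.

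Leaving out 1 array turned the sign of small differences. Between the mimics the ranges were -0.0045 to 0.241 for SLC1A5, -0.16 to 0.257 for SLC3A2, -0.054 to 0.12 for SLC38A2, -0.0273 to 0.377 for SLC7A5, -0.0681 to 0.0444 for SLC7A6, -0.144 to 0.399 for SLC7A7 and -0.339 to 0.484 for SLC7A11. Between the experiments they were -0.232 to 0.0214 for SLC1A5, -0.111 to 0.161 for SLC38A1 and -0.0541 to 0.112 for SLC7A1. Each fit without an array leaves 1 sample in an arm, assumed to vary like the others. The count of 35 expressed genes became 37 when 3 of 4 arrays sufficed. With normexp the difference between the experiments went from 0.91 to 0.27 for the dim SLC6A13 probe and from 0.68 to 0.92 for SLC7A11.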
